A study of Mus musculus with 5 samples.

Results

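CCT3 is the gamma subunit of TRiC/CCT, the ring-shaped chaperonin that folds actin, tubulin and many other newly made proteins in the cytosol. It has no classical RNA-binding domain, and its RNA contacts are much less described than its protein clients. The data described here are the peaks of its eCLIP experiment, that is, every entry of the pair of deposited CCT3 peak tables, called CCT3 and CCT3-2 after the sample titles. The CCT3 list held 10916 peaks and the CCT3-2 list 18650, together 29566 of the 43658 peaks of the series.

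eCLIP links a protein to the RNA it touches with ultraviolet light, pulls it down with an antibody after RNase trimming, and sequences the attached fragments beside an input library. A peak is a stretch with more reads in the immunoprecipitation than in the input, and each carried the authors' log2 fold over input and their −log10 p. Both samples came from GC-2spd(ts) cells, an established mouse germ cell line labelled as spermatocyte cells, with no treatment or genotype in the labels, immunoprecipitated with an anti-CCT3 antibody. The series has 5 samples, of which 2 are CCT3 immunoprecipitations and 1 is the CCT3 input, a lysate library without immunoprecipitation. Both CCT3 samples carry the same library name and share that input, so they were not treated as independent replicates and no test across samples was possible. Each result is given for both lists side by side.

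The lists differed in how they were made, and this touches several results. The deposited log2 folds reached 8.67 in CCT3 (median 4.05, none below 3) and from 2.37 to 8.94 in CCT3-2 (median 3.83). All CCT3 peaks had both values at 3 or more, against 83.7% of CCT3-2 peaks. Neighbouring CCT3 peaks were never closer than 6 bases, whereas CCT3-2 held 2767 pairs of peaks that abut on the same strand. Peaks within 1000 bases of a listed transcription start were all classed as promoter in CCT3-2 (3012 of 3012), but in CCT3 only 5.92% of such peaks were (101 of 1705) and 56.5% were classed as exon. Read totals were not given with the peaks, so depth is unknown. Each 95% interval was computed by Wilson's method and covers only the error of counting, and reads without molecular identifiers are not independent molecules.

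Sequences of a few peaks can be shown from RefSeq (GRCm38.p6, the build of the files, mm10). The first is the microRNA hairpin Mir423 at chr11:77078064-77078172 on the minus strand, shown because it holds the highest fold of CCT3-2. The CCT3 peak lay at 77078127 to 77078151 with a log2 fold of 6.32, and 3 abutting CCT3-2 peaks covered 77078122 to 77078151 with log2 folds of 8.94, 8.35 and 8.35. Capitals mark the bases under peaks in the hairpins, and the seed (bases 2 to 8) in the mature microRNA.
Mir423 hairpin, CCT3 peak: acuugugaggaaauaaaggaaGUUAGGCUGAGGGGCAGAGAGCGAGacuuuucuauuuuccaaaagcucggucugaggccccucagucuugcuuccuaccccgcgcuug
Mir423 hairpin, CCT3-2 peaks: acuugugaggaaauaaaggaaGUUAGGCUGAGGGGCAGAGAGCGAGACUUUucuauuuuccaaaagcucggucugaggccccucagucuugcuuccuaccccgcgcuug
mmu-miR-423-5p: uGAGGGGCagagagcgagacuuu

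The CCT3-2 peaks therefore held all of miR-423-5p, which spans 77078122 to 77078144, and none of the 3′ arm at 77078086 to 77078108. Other microRNA genes held weaker peaks. Mir1896 and Mir6244 had peaks in both lists, with highest log2 folds of 3.47 and 4.43 in CCT3 and 3.72 and 4.96 in CCT3-2, but the CCT3-2 peaks of both lay on the strand opposite to the hairpin. Mir29a, Mir23a, Mir27a, Mir1905 and Mir5099 had peaks in CCT3-2 alone, with log2 folds between 2.59 and 4.25.

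The other sequences are CCT3-2 peaks that a CCT3 peak overlapped. The CCT3-2 peaks lay inside the windows from 250 bases before to 50 bases after a RefSeq start. On the chromosomes searched, which were not all, such windows held 73 CCT3-2 peaks (0.391% of that list), and 46 of these were overlapped by a single CCT3 peak. Nedd4 (a ubiquitin ligase) and Lcorl (a DNA-binding protein, here in the window of the neighbouring Gm3414) are shown as the pair of highest smaller fold, and Gm15411 as a peak that both tables class as intronic. Capitals mark the bases shared by the peaks of both lists.
Nedd4, chr9:72693124-72693183, plus strand: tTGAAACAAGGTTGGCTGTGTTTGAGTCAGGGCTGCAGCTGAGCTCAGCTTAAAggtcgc
Lcorl, chr5:45727685-45727739, minus strand: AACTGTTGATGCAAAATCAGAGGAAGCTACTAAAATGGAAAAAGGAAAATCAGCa
Gm15411, chr5:148970404-148970493, minus strand: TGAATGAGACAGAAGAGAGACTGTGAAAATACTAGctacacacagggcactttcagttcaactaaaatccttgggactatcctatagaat

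The Nedd4 peak had log2 folds of 5.91 in CCT3 and 5.93 in CCT3-2, the Lcorl peak 5.69 and 5.52, and the Gm15411 peak 4.21 and 4.43. Over all 73 peaks, G made up 34.8% of bases inside peaks and 29.7% in the rest of the same windows on the peak's strand, and T 16.9% and 21.2%. The rest was taken for each peak as its window without that peak, so it can hold bases of other peaks. A and C differed less, with A at 22.1% inside and 21.8% outside. These windows lie at gene starts, so their composition does not describe the other peaks.

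CCT3 peaks were spread unevenly over genes, with a few genes carrying long series of peaks. By position, 98.1% of CCT3 peaks and 98.0% of CCT3-2 peaks were assigned to a RefSeq gene. They fell in 2108 and 2714 genes, and 12.4% and 12.5% of peaks lay where gene spans overlap, so that the named gene is a choice there. Strand was not used in this assignment. The assigned gene was the gene listed by the authors for 80.7% and 82.3% of assigned peaks. Among the 21900 protein-coding genes, 9.19% had at least 1 CCT3 peak and 11.8% at least 1 CCT3-2 peak. These shares are the background for the counts of protein-coding genes below. RNA levels were not analysed here, so a gene with no peak cannot be told apart from one with too little RNA to give a peak.

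The median gene with a peak had 3 in either list. A single peak was found in 33.1% of CCT3 genes (95% interval 31.1 to 35.2%) and 29.1% of CCT3-2 genes (27.4 to 30.8%). At least 10 peaks were found in 327 and 598 genes, and at least 20 in 85 and 213. The 10% of genes with most peaks held 39.0% of CCT3 peaks and 42.8% of CCT3-2 peaks.

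**Figure D1:**
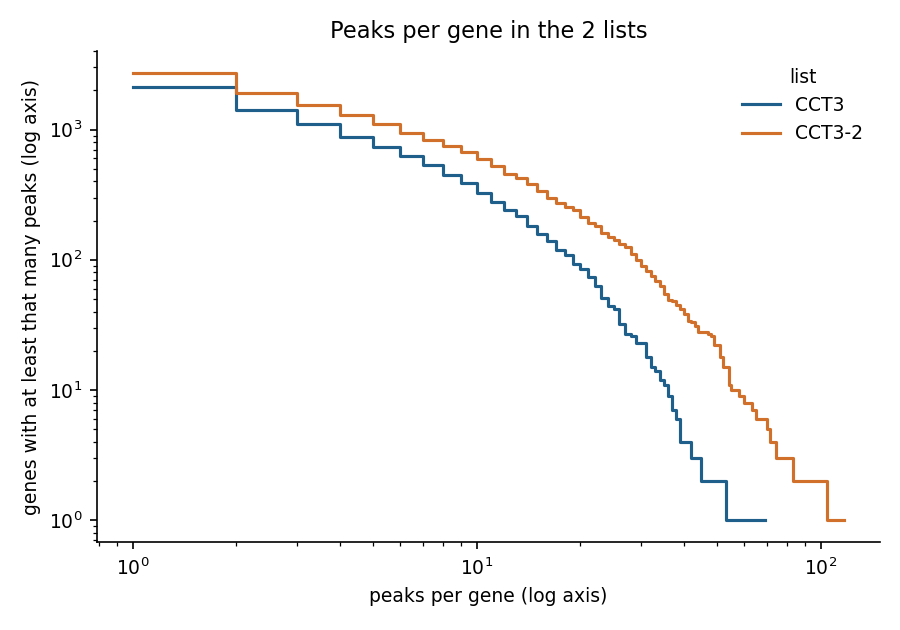
Number of genes (vertical, log axis) with at least a given number of peaks (horizontal, log axis) in the CCT3 list (blue) and the CCT3-2 list (orange). Both curves fall without a step, from 2108 and 2714 genes with a peak to 85 and 213 genes with 20 or more.

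The lists overlapped widely, which describes the tables and is no replication, since they share a library name and an input. The 2010 shared genes were 95.4% of CCT3 genes and 74.1% of CCT3-2 genes. The median shared gene had 1.6 times as many peaks in CCT3-2, with more peaks there for 1533 genes and fewer for 72. Peak for peak, the share with at least 1 base in the other list was 89.9% for CCT3 and 64.3% for CCT3-2. Genes found in 1 list alone mostly had 1 peak, 80 of 98 for CCT3 and 497 of 704 for CCT3-2.

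A few genes went against this and were picked out after their values were seen. Ulbp1 (a stress ligand of immune cells) had 25 peaks in CCT3, Trerf1 (a zinc finger regulator of transcription) 22 and Pot1b (a telomere-binding protein) 16, all of them intronic. Zhx1 (a homeobox repressor) had 8, none intronic. CCT3-2 had no peak anywhere in the spans of these 4 genes. In the other direction, Ccnyl1 (a cyclin-like protein) had 12 peaks, Kif16b (a kinesin) 10 and Zfp976 (a zinc finger gene) 8 in CCT3-2, and CCT3 had none in their spans.

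The genes with most peaks in both lists fell into exonic and intronic cases. Dst (chr1:33907888-34308662), which encodes dystonin, a giant linker of cytoskeletal filaments, had 69 CCT3 and 103 CCT3-2 peaks, with 58 and 89 of them exonic and none intronic. Zfp292 (chr4:34803110-34882983), a zinc finger transcription factor, had 41 and 70, of which 41 and 69 were exonic. Amer1 (chrX:95420313-95444840), an APC-binding protein of the Wnt pathway, had 38 and 62, divided between exon and 3′ UTR. These genes had median log2 folds from 3.95 to 4.74.

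Samd9l (chr6:3372257-3399571), an interferon-induced antiviral factor, had 37 CCT3 peaks and 51 CCT3-2 peaks, of which 34 and 47 were exonic. Brca2 (chr5:150522297-150570147), a mediator of recombination repair, had 36 and 54, of which 28 and 43 were exonic and 8 and 8 intronic. Brca2 thus carried peaks in both classes, with exons in the majority.

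The intronic cases carried peaks almost only between exons. Wwox (chr8:114439635-115352712), an oxidoreductase gene at a chromosomal fragile site, had 52 peaks in CCT3 and 82 in CCT3-2, every one intronic. Ube2e2 (chr14:18573563-18894284), a ubiquitin-conjugating enzyme, had 36 and 48, with 36 and 46 intronic. Airn (chr17:12741311-12859884), the imprinted noncoding RNA antisense to Igf2r, had 35 and 59, with 31 and 48 intronic. Samd4 (chr14:46882965-47105817), an RNA-binding repressor of translation, had 35 and 47, with 33 and 38 intronic.

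Tug1 (chr11:3639785-3648814), the long noncoding RNA named in the title of the series, ranked among these 10 genes. It had 44 CCT3 peaks, all exonic, and 73 CCT3-2 peaks, of which 52 were exonic and 21 fell in the promoter class. All 44 CCT3 peaks there touched a CCT3-2 peak, and 67 of the 73 CCT3-2 peaks touched one of CCT3. The median log2 fold was 4.61 and 4.70, and the highest 7.22 and 7.24. When CCT3-2 peaks within 10 bases on the same strand were joined, an alternative chosen after seeing the data, 45 remained in Tug1. The gene of the immunoprecipitated protein itself, Cct3, had no peak in either list.

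By fold over input, other genes led. Hnrnpl (chr7:28808546-28822268), a splicing regulator of the hnRNP family, had 21 peaks in CCT3 and 53 in CCT3-2, with highest log2 folds of 7.96 and 7.94 and medians of 6.12 and 6.21. Its −log10 p reached 400, the cap of the tables, at 12 and 26 peaks. Nedd4 reached log2 folds of 7.81 and 7.69, and Brip1os, a noncoding RNA with 30 and 46 peaks, all intronic, 7.76 and 7.59.

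Trim30d (a Trim family gene) reached 7.48 and 7.65, and Rbm12b2 (an RNA-binding protein) 7.43 and 7.55 with only 6 and 14 peaks. Arid5b (a DNA-binding chromatin regulator) reached 7.56 and 7.41, and Zfp101 (a zinc finger gene with all its peaks in the 3′ UTR) 7.25 and 7.37. The order of these genes by fold was thus not their order by number of peaks, and Tug1 was the only gene to stand in both sets.

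The nuclear noncoding RNAs Malat1 and Neat1 combined low folds with −log10 p at its cap of 400, a value shared with peaks of Hnrnpl, Rbm15, Zc3h11a and other genes, so that it ranks none of them. Malat1 (chr19:5795690-5802672), an abundant RNA of nuclear speckles, had 11 CCT3 peaks and 117 CCT3-2 peaks, and all of them had a −log10 p of 400. Neat1 (chr19:5824708-5845480), the scaffold of paraspeckles, had 12 and 69, again all at 400. Their median log2 folds were 3.33 and 3.40 for Malat1 and 3.40 and 3.67 for Neat1, below the medians of the lists. The tables held 56 and 256 peaks at 400 in all.

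The annotation placed most peaks in exons and introns. Exons outside UTRs held 47.9% of CCT3 peaks and 38.6% of CCT3-2 peaks, and introns 29.6% and 27.6%. With the promoter class left out, the exon shares were 48.4% (47.4 to 49.3%) and 46.0% (45.2 to 46.8%), the intron shares 29.9% and 32.9%, and the 3′ UTR shares 18.2% and 19.7%. Intronic peaks had higher median folds and lower median −log10 p than exonic peaks. The median log2 fold was 4.36 and 4.04 in introns against 3.91 and 3.75 in exons, while the median −log10 p was 6.04 and 5.41 in introns against 8.904 and 9.10 in exons. The same log2 fold, 4.324274565, recurred at intronic CCT3 peaks of Ube2e2, Airn and Sox5. Input reads per peak were not examined, so whether high folds rest on few input reads was not tested.

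Exonic peaks leaned to the last exon. In transcripts of several exons, the last exon held 47.0% of exonic CCT3 peaks (45.6 to 48.4%, 2242 of 4773) and 52.6% of those in CCT3-2 (51.4 to 53.8%, 3482 of 6624). Peaks placed equally on every exon of the same transcripts would give 21.0% and 21.3%. The first exon held 10.2% and 6.27% against the same 21.0% and 21.3%, and internal exons 42.8% and 41.2% against 58.0% and 57.5%. For first exons the promoter class removes more peaks in CCT3-2, as described above. Peaks classed as 5′ UTR (344 and 170) or 3′ UTR (1969 and 3081) are also left out of these shares, while the equal share counts every exon.

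The lean held in short and long transcripts. With 2 to 5 exons the last held 68.0% and 74.8% of exonic peaks (34.5% and 34.8% if equal), and with 10 or more exons it held 15.7% and 18.8% (5.88% and 6.01%). The lengths of exons were not used here. Last exons are usually the longest, so these shares are per exon and not per base.

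**Figure D2:**
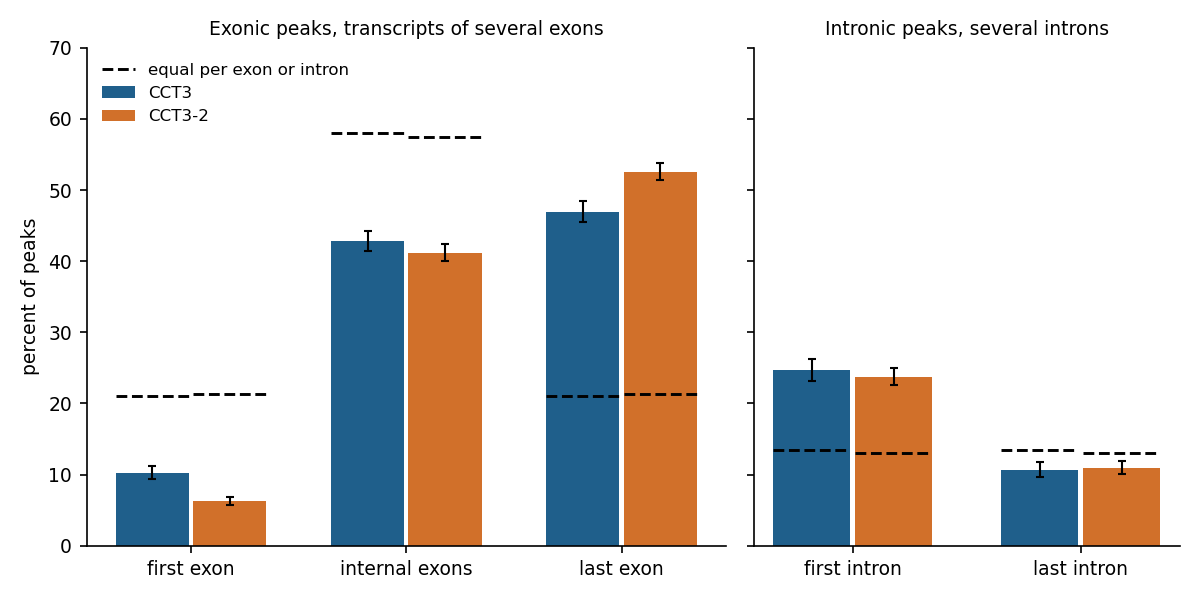
Percent of exonic peaks in first, internal and last exons of transcripts with several exons, and percent of intronic peaks in the first and last intron of transcripts with several introns. Bars are the lists (CCT3 blue, CCT3-2 orange) with Wilson 95% intervals, and dashed lines the percent that equal numbers per exon or intron would give. The last exon (47.0% and 52.6%) and the first intron (24.7% and 23.8%) stand above their lines.

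Intronic peaks leaned to the first intron. It held 24.7% (775 of 3143) and 23.8% (1193 of 5022) of intronic peaks in transcripts of several introns, against 13.4% and 13.1% if equal over introns. The last intron held 10.7% and 11.0%, below that level. First introns are usually the longest, and intron length was not used here either.

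Peaks of a gene tended to share 1 exon or 1 intron. Of genes with at least 5 exonic peaks, 61.4% in CCT3 (227 of 370) and 63.6% in CCT3-2 (287 of 451) had all of them in a single exon. For intronic peaks the shares were 74.9% (161 of 215) and 73.3% (241 of 329). Of the genes with at least 5 peaks outside the promoter class, 58.0% and 55.5% had no intronic peak, 16.8% and 20.4% had only intronic peaks, and 25.2% and 24.2% had both.

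Single exons with at least 5 peaks numbered 355 in CCT3 and 451 in CCT3-2, and 300 were the same exon. They held 59.8% and 68.9% of all exonic peaks. The stretch from their first to their last peak, which is the least length the exon can have, had a median of 1491 and 1330 bases. The last exon of its transcript made up 188 of the 355 and 265 of the 451.

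The fullest exons belonged to genes of several kinds. Exon 8 of 8 of Zfp292 held 40 CCT3 and 67 CCT3-2 peaks along 6714 and 6833 bases, with log2 folds from 3.54 to 6.16 and from 3.44 to 6.64. Exon 2 of 2 of Tug1 held 34 and 52 peaks along 5491 and 5499 bases. Exon 2 of 2 of Samd9l held 34 and 47 along 4467 and 4660 bases. In all 3 genes these exons held most of the gene's peaks.

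Internal exons could be as full. Exon 3 of 28 of Ash1l, a histone methyltransferase, held 28 and 44 peaks along 4472 and 4478 bases, and no intron of Ash1l held a peak. Exon 20 of 29 of Ranbp2, a nuclear pore protein, had 26 and 39 peaks along 4353 and 4362 bases, which were all of its peaks.

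Introns with at least 5 peaks numbered 230 and 351, of which 211 were the same, and they held 68.7% and 75.4% of intronic peaks. Their stretches were also short, with a median of 3092 and 3066 bases, and 184 of the 230 and 284 of the 351 stayed within 10 kb. Only 7 and 11 ran beyond 100 kb. Intron 3 of 52 of Col4a5, a basement membrane collagen, held 28 and 34 peaks in 7490 and 7489 bases.

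Some of the introns with most peaks were broken into compact groups. Intron 8 of 8 of Wwox held 42 and 62 peaks over 301786 and 301791 bases, and 41 and 60 of these stood in 4 groups of at least 5 peaks, none longer than 10734 and 10746 bases, where a group breaks at a step of more than 10 kb between peak starts. Intron 2 of 3 of Ube2e2 held 36 and 46 peaks over 195503 and 191019 bases, with 33 and 44 in 3 groups. Intron 1 of 2 of Airn held 31 and 48 peaks in 3 groups. Intron 1 of 10 of Ghr, the growth hormone receptor, held 30 and 48 peaks, of which 26 and 48 stood in 1 group and 2 groups of up to 21628 and 21707 bases, with median log2 folds of 5.23 and 4.82 that stood above those of the other 4 introns.

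**Figure D3:**
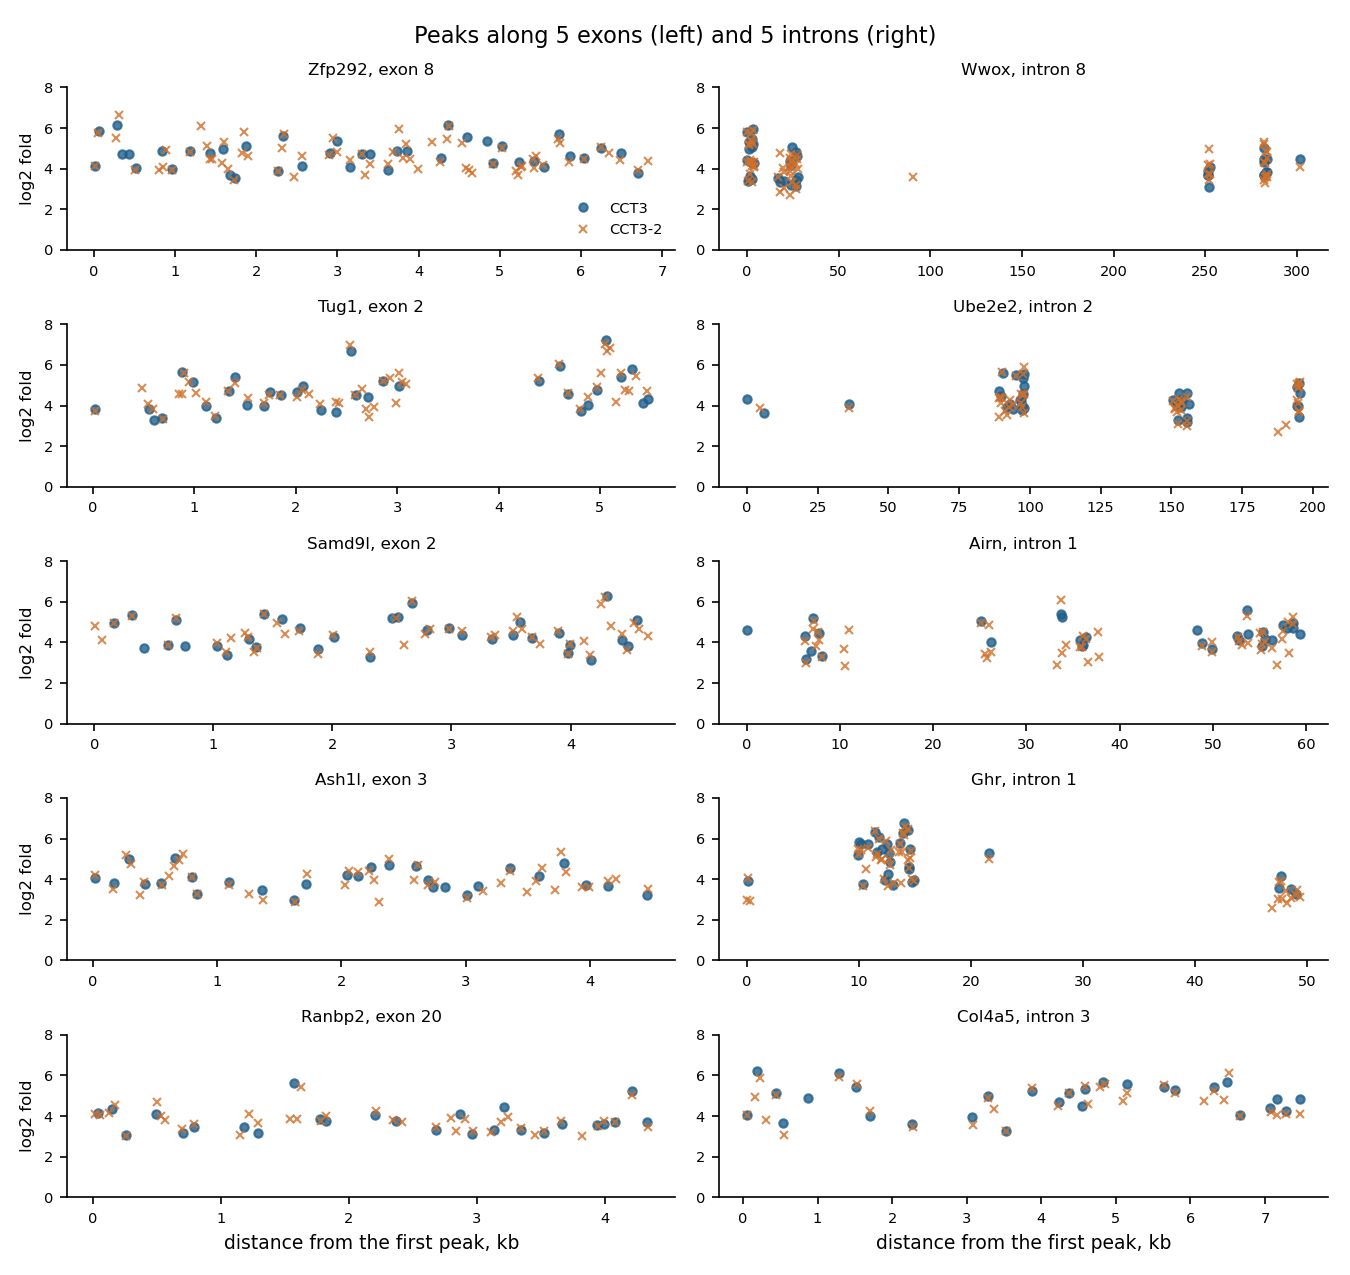
Peaks along 5 exons and 5 introns described in the text: distance of each peak from the first peak (kb, a linear axis for each panel) against its log2 fold over input, CCT3 as blue dots and CCT3-2 as orange crosses. Peaks of both lists line the exons, apart from an empty stretch in Tug1, and line Col4a5, and they fall into separate groups in Wwox and Ube2e2.

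Peaks lay close to each other. The median gap to the nearest peak of the same list was 95 bases in CCT3 and 43 in CCT3-2. A neighbour within 100 bases was found for 51.7% (50.8 to 52.7%) and 66.4% (65.7 to 67.1%), and within 1000 bases for 87.1% and 90.7%. Exonic peaks were the closest, with median gaps of 78 and 32 bases against 122 and 70 in introns. After same-strand CCT3-2 peaks within 10 bases were joined, 54.3% had a neighbour within 100 bases.

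**Figure D4:**
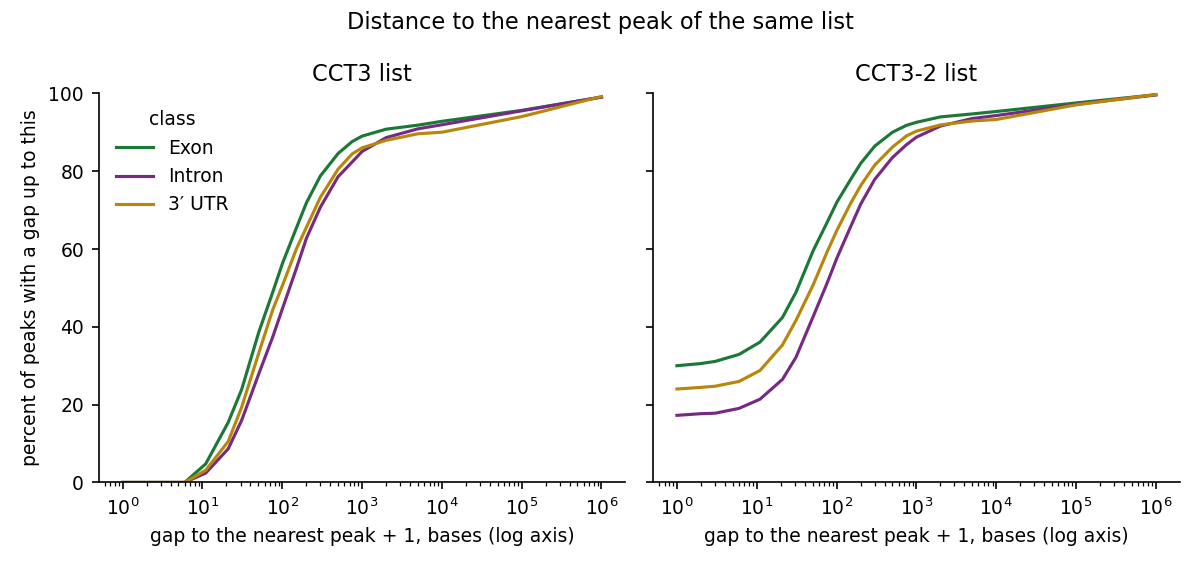
Cumulative percent of peaks whose nearest neighbour in the same list lies within a given gap (bases plus 1, log axis), for exon, intron and 3′ UTR peaks of CCT3 (left) and CCT3-2 (right). Most of the rise lies between about 10 and 1000 bases, and only CCT3-2 starts above 0 because its peaks can abut.

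Joined wherever the gap was at most 200 bases, the peaks formed 430 clusters of at least 5 peaks in CCT3 and 900 in CCT3-2. These held 29.4% and 45.3% of peaks, with median lengths of 822 and 781 bases. A peak of the other list overlapped 98.1% and 99.4% of them. In CCT3-2, which gives strand, 3231 of 3232 clusters of 2 or more peaks lay on 1 strand.

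The largest CCT3 clusters lay in Zc3h11a (29 peaks in 3357 bases, a gene of an RNA export factor), 2610008E11Rik (27 in 2981 bases), Tug1 (22), Hnrnpl (21) and Samd9l (20). In CCT3-2 they lay in Malat1 (117 peaks in 1242 bases), Zc3h11a (84 in 3375 bases), Neat1 (68), Hnrnpl (53) and Flrt1 (44 in 4263 bases), a membrane adhesion protein. Zc3h11a and Hnrnpl stood among the first 5 of both lists.

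Gene classes were counted over 44 lists of 3310 genes, of which 524 had a CCT3 peak and 615 a CCT3-2 peak. Genes with a peak were longer than genes without one, with a median span of 42808 against 15725 bases in CCT3 and 40011 against 15336.5 in CCT3-2. From the shortest to the longest decile of protein-coding genes by span, the share with a peak rose from 0.365% to 20.6% in CCT3 and from 0.502% to 26.0% in CCT3-2. The shares below are therefore to be read against genes of like span as well as the 9.19% and 11.8% over all protein-coding genes. For long noncoding RNAs no such background was computed. No set test was made, and the lists were chosen with results of these data known.

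Zinc finger genes of transcription regulators were reached often, and the Zbtb genes had the highest share of the 44 lists. Of 424 Zfp, Zkscan and Zscan genes, whose proteins mostly bind DNA through tandem C2H2 fingers, 178 had a CCT3 peak (42.0%, interval 37.4 to 46.7%) and 217 a CCT3-2 peak (51.2%, 46.4 to 55.9%), where like span gave 9.10% and 11.9%. Of 41 Zbtb genes, which pair zinc fingers with a BTB domain, 27 (65.9%) and 32 (78.0%) had one, against 9.11% and 11.9%. Among them were Zkscan1 with 28 and 39 peaks, Zfp451 with 22 and 31, Zbtb5 with 18 and 25, and Zbtb21 with 16 and 23.

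In these genes the exonic peaks sat mostly in the last or only exon. Of 713 and 1084 exonic peaks in the Zfp, Zkscan and Zscan genes, 582 (81.6%) and 895 (82.6%) were in the last or only exon, and only 36 of 1079 and 69 of 1775 peaks were intronic. For Zbtb genes the last or only exon held 87 of 106 and 114 of 140 exonic peaks. Over all exonic peaks, the last or only exon held 51.6% and 56.3%. In transcripts of 2 to 5 exons of any gene, the last exon alone held 68.0% and 74.8%. Zinc finger genes were not compared with other genes of like exon number. The last exon of a C2H2 gene commonly encodes the whole finger array.

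Chromatin regulators were also reached above the background. Of 37 remodeller genes 19 (51.4%) and 22 (59.5%) had a peak, with 16.9% and 21.0% for like span. Of 39 histone methyltransferases and demethylases 16 (41.0%) and 18 (46.2%) did, against 15.4% and 19.2%. Arid2, a subunit of the PBAF remodeller, had 22 and 27 peaks, Prdm2 18 and 33 and Setd2 15 and 21. Of the exonic peaks of the methyltransferase and demethylase genes, 14 of 121 and 24 of 152 were in the last or only exon. Of 11 genes of Polycomb repressive complex 2, 2 and 3 had a peak (18.2% and 27.3%, like span 11.6% and 14.9%).

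Several signalling and repair lists stood above their background too. Peaks were found in 18 and 20 of 41 DNA repair genes (43.9% and 48.8%), 12 and 13 of 25 mTOR and insulin pathway genes (48.0% and 52.0%), and 12 and 13 of 33 Wnt genes (36.4% and 39.4%). For like span the shares were 14.0% and 17.6%, 15.4% and 19.2%, and 12.3% and 15.5%. Of 23 interferon response genes 12 (52.2%) had a peak in each list, with 9.42% and 12.1% for like span. Irs1, an adaptor of the insulin receptor, had 30 and 38 peaks, and Irs2 13 and 27. Ifih1, a sensor of double-stranded RNA, had 11 and 17, Ifit1 11 and 17, and Eif2ak2, the kinase PKR, 11 and 15.

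Lists with lower shares included 30 TGF-beta and BMP genes with 8 and 8 reached (26.7%, like span 13.95% and 17.3%), 24 p53 target and apoptosis genes with 6 and 6 (25%, like span 9.39% and 12.1%), and 38 cell cycle genes with 8 and 8 (21.1%, like span 9.83% and 12.6%). The share was higher for 34 Mediator and elongation genes, of which 13 and 13 had a peak (38.2%, 23.9 to 55.0%, like span 13.3% and 16.7%). Among them was Ccnt2, a partner of the elongation kinase, with 13 and 32 peaks. Of 31 Map2k, Map3k and Map4k genes 10 and 10 had one (32.3%, like span 14.5% and 18.2%), and of 64 deubiquitinase genes 18 and 19 (28.1% and 29.7%, like span 12.6% and 15.9%). Of 30 HECT and UBR ligase genes 6 and 9 did (20% and 30%), close to the 19.04% and 23.5% of like span.

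Genes of RNA metabolism gave mixed counts. Of 21 writer, eraser and reader genes of the RNA mark m6A, 10 and 11 had a peak (47.6% and 52.4%, like span 12.6% and 15.9%). Among them were Rbm15, a writer subunit, with 28 and 57 peaks, Ythdc1, a nuclear reader, with 20 and 29, and Ythdf3 with 12 and 20. Of 41 hnRNP and related genes 7 and 8 had one (17.1% and 19.5%, like span 9.76% and 12.5%), and of 34 SR and related genes 9 and 9 (26.5%, like span 9.88% and 12.7%), with Son at 19 and 36. Of 34 poly(A) tail and deadenylation genes 8 and 9 had one (23.5% and 26.5%, like span 11.2% and 14.2%), among them Cnot4 with 18 and 29.

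Among 16 microRNA pathway genes only Tnrc6a (15 and 26 peaks), Tnrc6b (14 and 27) and Tnrc6c (13 and 19), the GW182 proteins that recruit deadenylases, had peaks in both lists, and Dicer1 had 2 in CCT3-2 alone. Argonaute genes are in this list and had none, and its shares of 18.8% and 25% stood near the 14.7% and 18.6% of like span. Of 35 long noncoding RNAs 9 had a peak in each list (25.7%, interval 14.2 to 42.1%), with Tug1, Airn, Brip1os, Neat1 and Malat1 described above. The share over all long noncoding RNA genes was not computed, so this count has no background to be read against.

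Structural and membrane genes differed by family. Of 98 cadherin genes 29 and 32 had a peak (29.6% and 32.7%, like span 14.6% and 18.3%), among them Pcdh15 with 21 and 34 and Pcdh17 with 21 and 26. Of 25 large linker and scaffold genes 9 had one in each list (36%, like span 17.9% and 22.3%), led by Dst and followed by Macf1 with 13 and 21. Of 64 motor genes 12 and 17 did (18.8% and 26.6%, like span 15.4% and 19.4%), with Dync2h1 at 21 and 33, all intronic. Of 70 Arhgef, Arhgap and Dock genes 18 and 26 had a peak (25.7% and 37.1%, like span 16.3% and 20.6%), and of 24 centrosome genes 8 and 11 (33.3% and 45.8%, like span 14.6% and 18.1%). Of 68 Trim genes 9 and 12 did (13.2% and 17.6%, like span 8.94% and 11.7%), and of 36 nuclear pore genes 5 and 4 (13.9% and 11.1%, like span 13.2% and 16.5%).

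The list of the longest genes, 22 at common fragile sites with a median span of 1284529.5 bases, did not have the highest share. Of these genes, 4 and 7 had a peak (18.2%, 7.31 to 38.5%, and 31.8%, 16.4 to 52.7%). Both intervals held the like span shares of 20.6% and 26.0%. Like span is a coarse match here, since the longest decile has a median span of 184828.5 bases. An effect of length was not tested. In the fragile site genes, 86 of 89 and 139 of 142 peaks were intronic, most of them in Wwox, which had 52 and 82. Solute carrier genes fell below the background at 15 and 16 of 346 (4.34%, 2.64 to 7.03%, and 4.62%, 2.87 to 7.38%), where like span gave 11.1% and 14.2%. Slc25a37, a mitochondrial iron importer, was their fullest member with 18 and 35 peaks.

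**Figure D5:**
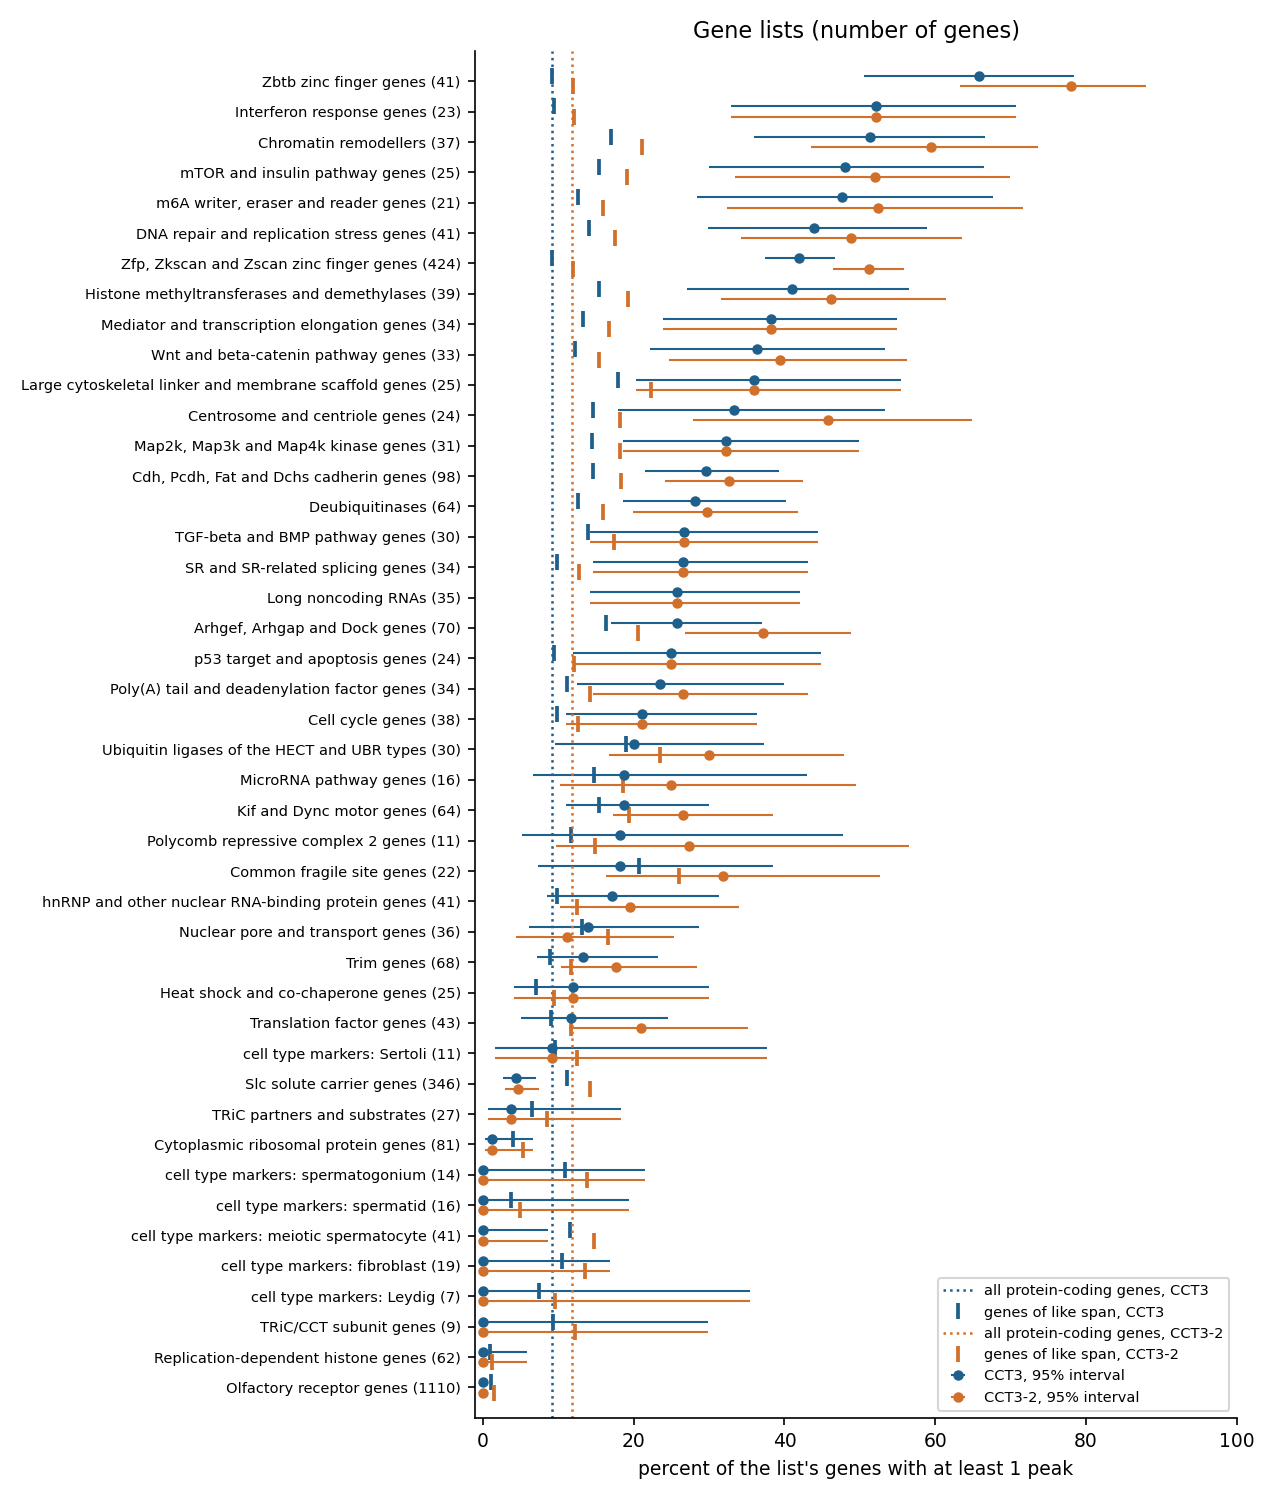
Percent of each list's genes with at least 1 peak (dots with Wilson 95% intervals, CCT3 blue and CCT3-2 orange), ordered by the CCT3 share, with the number of genes in brackets. Dotted lines are the shares over all protein-coding genes (9.19% and 11.8%) and vertical ticks the shares for genes of like span. Zbtb, interferon, remodeller and Zfp genes lie far to the right of their ticks, and Slc genes to the left.

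Genes for protein synthesis and folding had shares with a peak whose 95% intervals held those of like span. Of 81 cytoplasmic ribosomal protein genes only Rps15a had a peak in each list, an intronic one with a log2 fold of 4.09 and 3.94 (1.23%, 0.218 to 6.67%), and like span gave 3.97% and 5.25%, inside that interval. Of 43 translation factor genes 5 and 9 had one (11.6% and 20.9%), where like span gave 9.04% and 11.7%. None of the 9 TRiC subunit genes had a peak, an interval that reaches 29.9% and holds the 9.32% and 12.2% of like span. Of 27 TRiC partners and substrates only Tuba4a, an alpha-tubulin, had 1 peak in each list (3.70%, like span 6.51% and 8.54%). Among 25 heat shock proteins and co-chaperones, 3 genes carried peaks in each list (12%, like span 7.09% and 9.43%), with Hspa14 at 14 and 22.

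Families of very short genes gave none. No peak fell in the 1110 olfactory receptor genes (0%, up to 0.345%) or in the 62 replication-dependent histone genes, for which like span gave 1.08% and 0.878% in CCT3.

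Markers of the labelled cell type were not seen among the peaks. None of 41 meiotic spermatocyte markers had a peak in either list (0%, up to 8.57%), where like span gave 11.5% and 14.7%. Nor did any of 16 spermatid, 14 spermatogonium, 7 Leydig or 19 fibroblast markers. For these, like span gave 3.71%, 10.9%, 7.49% and 10.5% in CCT3 and 4.90%, 13.8%, 9.56% and 13.5% in CCT3-2. Their intervals reach 19.4%, 21.5%, 35.4% and 16.8% and hold those shares. Of 11 Sertoli markers only Sox9 had one (9.09%, like span 9.59% and 12.4%), with 1 CCT3 peak and 6 CCT3-2 peaks. In all, 1 of 108 marker genes had a peak in each list, and no like span share was computed for them together. Peaks show bound RNA and not expression, so these counts do not give the identity of the cells.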

How the data were processed

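The labels describe anti-CCT3 eCLIP with an input in GC-2spd(ts) cells. Per the submitters' processing notes the reads were handled with bcl2fastq 2.20 and the build mm10. Aligner, peak caller and annotation tool: not given in the sources used here. The −log10 p values and the log2 fold values of each peak are those deposited by the authors. The columns of CCT3-2 have no names and were read as these quantities from their order and ranges. They served to rank and filter peaks inside 1 list, never to compare lists by a test.

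Each peak was assigned by its midpoint to the RefSeq gene (GRCm38.p6) whose span holds it, with small RNA genes preferred, followed by the gene whose ID the annotation gives, by a lone gene at that position, and last by the listed gene. Exon and intron rank came from the deposited annotation. The equal share is the mean over peaks of 1 over the number of exons or introns. Share for like span is the mean, over a list's genes, of the share with a peak in each gene's decile by span.

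Named genes are Tug1 and Cct3, the 10 genes with most peaks by the smaller of the counts, the 8 with the highest smaller fold, the 5 fullest exons and introns, the 5 largest clusters of each list, microRNA genes, and up to 4 members per list. Ranbp2 as an exon beyond the 5, the sequences shown and the genes of 1 list were picked after their values were seen. The members and all gene lists were chosen with earlier results of these data known. Of the listed symbols, 3 matched no RefSeq gene. Python 3.11.15, numpy 2.4.6, pandas 2.3.3, scipy 1.17.1 and matplotlib 3.10.9 were used, and the counting was tested on simulated data. PABPC1 peaks were not used, and 2 genes that the rule names are not reported here.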

Additional observations from a re-analysis of the deposited data

How the results depend on the processing

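Each of 11 results was taken as the CCT3 value and recomputed under 53 alternatives, 24 of which gave a share within its 95% interval or a count within 1.5 times. With CCT3-2 in place of CCT3, the share in exons was 38.6%, in introns 27.6%, in last or only exons 56.3%, genes with 1 peak 29.1%, peaks in the top genes 42.8%, neighbours within 100 bases 66.4%, Zfp, Zkscan and Zscan genes 51.2%, and Tug1 peaks 73. With CCT3-2 limited to peaks with both values at 3 or more, these were 39.4%, 26.6%, 57.0%, 28.6%, 42.3%, 67.9%, 43.2% and, for Tug1, 73. With a log2 fold of at least 4 and a −log10 p of at least 5, the exon share was 45.8%, introns 34.3%, first introns 28.8%, last or only exons 57.2%, genes with a peak 1111, genes with 1 peak 38.9%, peaks in the top genes 38.1%, neighbours 46.6%, Zfp, Zkscan and Zscan genes 28.1%, and genes of the lists 315. Merging within 10 bases gave 50.2% with a neighbour. After seeing the data, 2 settings of CCT3-2 were added: without the promoter class, exons held 46.0% and introns 32.9%, and after joining within 10 bases 54.3% had a neighbour. Assignment by listed gene name or protein-coding genes alone moved no result beyond these limits. No paired analysis was possible because no test was made and both samples share 1 library name. Depth is unknown and sets what could be called a peak.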
